A study of Mus musculus with 12 samples.

Results

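The quantity described here is the difference of a knockout effect between ages in mouse retina. For each gene it is the log2 difference between knockout and wild type at 12 months minus the log2 difference between knockout and wild type at P28, postnatal day 28. A positive value means that the gene stood higher in the knockout, relative to its age-matched wild type, at 12 months than at P28, and a negative value means the reverse. The contrast used all 12 libraries and the 16486 of 53028 annotated genes that reached at least 1 CPM in 3 or more libraries. CPM here is the deposited gene signal, scaled to a common library total, and not a read count. The retinas came from C57BL/6J mice, of genotype Pilrb1/2+/+ or Pilrb1/2 -/-, with 3 libraries in each of the 4 groups of genotype and age. The deletion was made by CRISPR editing of zygotes and the line was bred from founders onto C57BL/6J, and the series text names Pilra beside Pilrb1 and Pilrb2 as deleted, whereas the sample labels name Pilrb1/2 only. The wild types carry no stated allele or treatment. Nothing in the labels ties each library to an animal of its own, so the p-values below measure the spread between libraries.

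PILRA and PILRB are paired receptors of the immunoglobulin-like type 2 family. PILRA carries an inhibitory motif in its cytoplasmic tail, whereas PILRB signals through the adaptor DAP12, and both recognise sialylated glycoproteins. In human genetics the PILRB/PILRA locus has been associated with age-related macular degeneration, a disease of the ageing retina and its pigment epithelium.

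The targeted genes were too weakly expressed to enter the test. Pilra (chr5:137821952-137836281, GRCm38) was measured at 0.133, 0.167 and 0.17 CPM in wild type and at 0.441, 1.16 and 0.819 CPM in knockout at P28. Older wild type gave 0.159, 0.221 and 0.268 CPM and older knockout 0.0556, 0.309 and 0.293 CPM. Pilra was thus above the worth of 3 reads in 5 of the 6 libraries labelled knockout, the first at 12 months being below it, and the P28 knockout values all lay above the P28 wild-type values while the groups overlapped at 12 months. The difference between ages in mean CPM was -0.645, with a two-sided exact permutation p = 0.055 over 400 arrangements of genotype within age, where 0.005 is the smallest p possible. Without the second or the third 12-month knockout library the p was 0.04, and without the other libraries in turn it was 0.05 to 0.14. Pilrb1 was listed at 0 in every library except the second 12-month knockout (0.052 CPM), and Pilrb2 in every library except the first 12-month wild type (0.0436 CPM). Each of these lone values is below the worth of 3 reads, which was 0.111 to 0.192 CPM, so neither gene checks the genotype labels. Levels of Pilra below the worth of 3 reads in a library cannot be told from background.

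Depth, estimated from the smallest steps of the values, ran from 14.7 to 25.9 M reads (M for mega) per library, and 15349 to 15857 genes reached 1 CPM. Of the lists of photoreceptor markers, 22 of 22 rod genes and 15 of 15 cone genes passed the filter on low values in these libraries labelled retina. Xist and Y-linked genes showed that the second and the third P28 knockout libraries and the first and second 12-month wild-type libraries were female and the other 8 male. Sex therefore runs along the same axis as the difference between ages, because P28 wild type and 12-month knockout were all male. Summed lens crystallin and other lens marker values ranged from 30.6 to 2558 CPM in P28 wild type, 55.2 to 6406 in P28 knockout, 27.7 to 77.3 in 12-month wild type and 26 to 983 in 12-month knockout. Transcripts of the mitochondrial genome made up 7.36 to 9.31% of the signal in P28 wild type, 4.56 to 7.08% in P28 knockout, 7.36 to 8.29% in 12-month wild type and 9.94 to 12.6% in 12-month knockout.

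The difference of the knockout effect between the ages passed the threshold for 29 of 16486 genes, 0.176% of those tested (limma, Benjamini-Hochberg adjusted p under 0.05, which is what "called" means below). The difference was positive for 13 genes (0.0789%) and negative for 16 (0.0971%), and 27 of the 29 are protein coding while A930006I01Rik and Gm20742 are long noncoding RNAs. Without a threshold 45.8% of all genes tested had a positive difference, which is the share to set beside the counts of signs in the lists below. At an unadjusted p under 0.05 there were 4397 genes (26.7%), 1909 positive and 2488 negative, and 1627 genes had adjusted p-values between 0.05 and 0.10. The adjusted p of the called genes lay between 0.000958 and 0.0478, and 28 of them had 0.0244 or more. The balance of positive to negative calls moved with the scaling: 14 to 8 after quantile normalization, 22 to 17 after median-of-ratios rescaling, 10 to 4 from summed transcript RPKM (the same, per kilobase of transcript), 47 to 18 from transcript RPKM weighted by length and 9 to 3 from coding transcripts alone. When sex was a term in the model no gene was called, the smallest adjusted p was 0.0554 for Pds5a, 2962 genes had an unadjusted p under 0.05, and all 29 differences kept their sign. With the 8 male libraries alone 3 genes were called, Pds5a among them. The count also turned on single libraries. It was 1 (Pds5a) without any one of 8 libraries and 2 (Pds5a and Acte1) without the first 12-month wild type. It was 235 without the second P28 knockout, 802 without the third 12-month knockout and 2501 without the third P28 knockout, and the 29 genes were all among the called in those 3 fits.

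The 2 ages contributed unequally. Within P28 the knockout effect was called for 246 genes (1.49%), 165 higher (1%) and 81 lower (0.491%), and within 12 months for 6536 genes (39.6%), 2655 higher (16.1%) and 3881 lower (23.5%). These counts moved with the model too. With a sex term they were 1 at P28 and 4961 at 12 months. With GC and length trends removed they were 268 and 1103, and with both changes 1 and 7. Without any 1 library they ranged from 3 to 1404 at P28 and from 3552 to 7761 at 12 months. The calls within each age given below for lists and genes rest on the fit without these changes. Of the 29 genes, 10 were called at both ages in opposite directions (0.0607% of all genes tested were called in that way), 16 were called at 12 months and not at P28, and Hnrnpa1, Lrp2 and Dgkd were called at P28 and not at 12 months. Estimates had opposite signs at the 2 ages in 27 of the 29, the exceptions being Haghl, which was negative at both, and Acte1, which was listed at 0 throughout P28. In 24 of the 29 the knockout libraries did not overlap the wild-type libraries at either age and lay on opposite sides of them, against 2.12% of all genes tested. The 3 libraries of 1 group often stood apart from the other 9. P28 knockout did so above in 7 and below in 10 of the 29 (2.6% and 2.78% of all genes tested), 12-month knockout above in 11 and below in 9 (9.35% and 9.52%), 12-month wild type above in 3 and below in 1 (5.7% and 3.71%), and P28 wild type above in 1 and below in 1 (1.42% and 2.14%). The 29 were picked by this contrast in these same libraries. Opposite signs and separation follow in part from that choice, so they describe the 29 and are no separate support. Conversely, 119 genes (0.722%) were called at both ages in the same direction, 83 higher and 36 lower in the knockout, and the difference between ages was called for 0 of them. No called gene lay on chromosome X or Y, and 0 of the 54 genes tested within 1 Mb of the deleted locus were called. Chromosome 5 carried 4 of the 29 called genes (Pds5a, Hnrnpdl, Tnrc18 and Mtus2) and 6.09% of all genes tested.

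**Figure D1:**
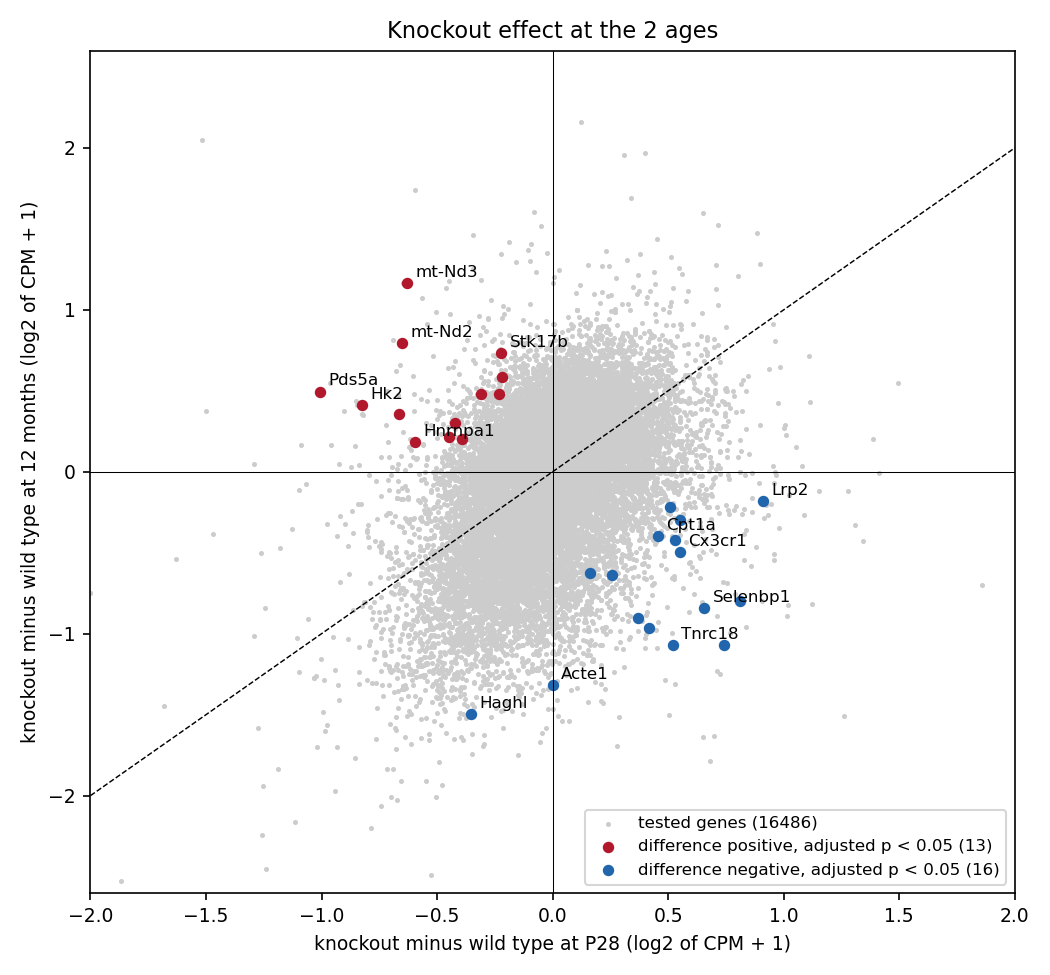
Knockout minus wild type at P28 (horizontal) against the same at 12 months (vertical), in log2(CPM + 1), for the tested genes; the dashed diagonal marks equal effects and 11 genes lie outside the axes. The 13 positive genes (red) sit upper left, and of the 16 negative genes (blue) all but Haghl, at lower left, and Acte1, at 0 on the horizontal axis, sit lower right.

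Pds5a had the smallest p of the contrast. Its product is a regulatory subunit of cohesin, the ring complex that holds sister chromatids together and shapes chromatin loops, and PDS5 proteins control how cohesin is loaded, acetylated and released. The gene (chr5:65605721-65698273, GRCm38) was at 351, 397 and 375 CPM in young wild type, against 181, 168 and 210 CPM in young knockout. Older wild type gave 142, 158 and 141 CPM and older knockout 207, 218 and 196 CPM. The 3 P28 wild-type libraries lay above the other 9 libraries and the 3 12-month wild-type libraries lay below the other 9, while the knockout libraries of the 2 ages overlapped. Pds5a fell in the knockout at P28 (log2 change -1.01 ± 0.09 SE, adjusted p = 0.00177, limma) and rose at 12 months (0.49 ± 0.09, adjusted p = 0.00351, limma), a difference of 1.50 ± 0.13 (adjusted p = 0.000958, limma). It was called in all 12 fits that left out 1 library, with adjusted p-values from 0.000314 to 0.00864. With a term for sex the difference was 1.59 ± 0.19 and missed the threshold (adjusted p = 0.0554, limma).

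The P28 decrease of Pds5a lay in its 2 main coding transcripts. Pds5a-201 was at 45.8, 47.8 and 45.5 RPKM in P28 wild type and at 10.8 to 17.5 RPKM in the other 9 libraries. Pds5a-212 was at 47.0, 55.6 and 55.6 RPKM in P28 wild type and at 12.8 to 34.1 RPKM in the other 9. Both transcripts were therefore high in the young wild type alone, without overlap. The other 12 transcripts summed to 20.2 to 23.6 RPKM in P28 wild type, 20.3 to 23 in P28 knockout, 13.6 to 16.6 in 12-month wild type and 20.8 to 23.2 in 12-month knockout. In that sum the 12-month wild type was low and the other groups overlapped. The share of Pds5a signal in the 2 coding transcripts was 81.4 to 82.2% in P28 wild type and 59.1 to 69.0% elsewhere. At 12 months Pds5a-201 overlapped between genotypes (13.6, 12.8 and 10.8 RPKM in wild type, 16.1, 13.9 and 12.1 RPKM in knockout), and Pds5a-212 did not (16.6, 19.9 and 18.4 RPKM in wild type, 27.5, 34.1 and 27.2 RPKM in knockout).

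**Figure D2:**
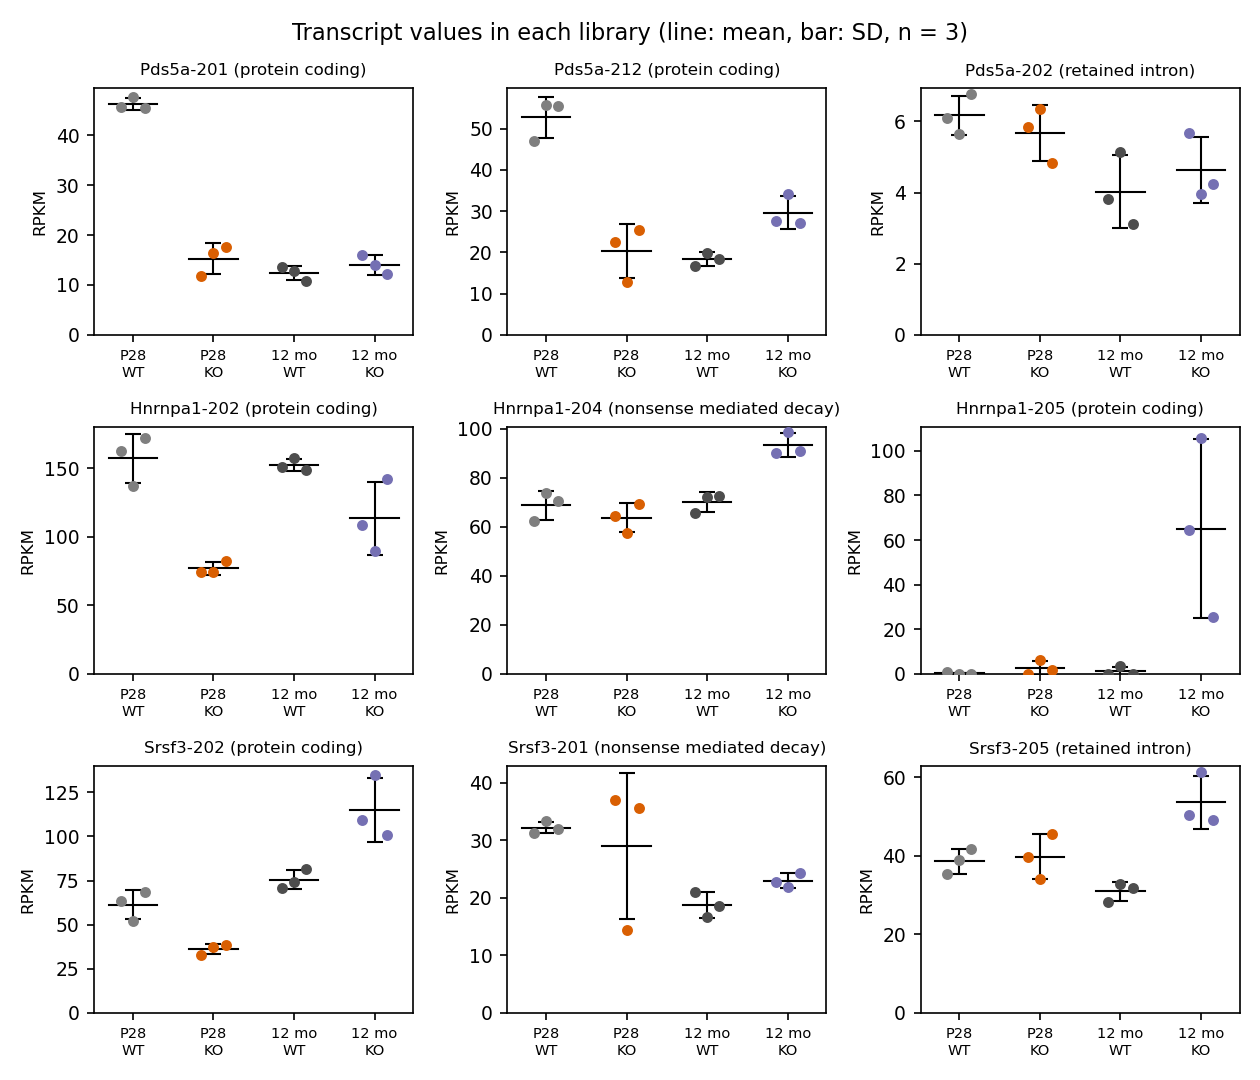
RPKM of 3 transcripts each of Pds5a, Hnrnpa1 and Srsf3 in every library, by group (points: libraries; line: mean; bar: SD, n = 3). Pds5a-201 and Pds5a-212 are high in P28 wild type alone, Pds5a-202 is not, and Hnrnpa1-205 is above 6.04 RPKM only in the 12-month knockout.

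The promoter windows are shown of 3 genes whose gene values were called in opposite directions at the 2 ages. Pds5a and Hk2 went one way, and Cpt1a, like Hk2 a metabolic gene described next, went the other. Each run is the 250 bases before the RefSeq start of the gene (GRCm38.p6), 5′ to 3′ on the gene's strand, with capitals marking CCAAT and GGGCGG on either strand.
Pds5a, chr5:65698237-65698486, minus strand: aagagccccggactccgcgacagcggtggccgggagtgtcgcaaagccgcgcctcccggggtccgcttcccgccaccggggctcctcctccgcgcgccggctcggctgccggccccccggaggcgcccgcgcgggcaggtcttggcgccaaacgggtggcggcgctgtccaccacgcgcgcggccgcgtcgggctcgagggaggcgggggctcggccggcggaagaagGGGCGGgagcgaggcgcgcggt
Hk2, chr6:82774455-82774704, minus strand: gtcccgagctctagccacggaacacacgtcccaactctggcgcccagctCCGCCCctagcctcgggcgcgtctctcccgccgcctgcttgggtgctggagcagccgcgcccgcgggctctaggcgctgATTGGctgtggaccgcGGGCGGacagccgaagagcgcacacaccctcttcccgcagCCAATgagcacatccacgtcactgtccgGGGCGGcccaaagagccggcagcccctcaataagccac
Cpt1a, chr19:3323051-3323300, plus strand: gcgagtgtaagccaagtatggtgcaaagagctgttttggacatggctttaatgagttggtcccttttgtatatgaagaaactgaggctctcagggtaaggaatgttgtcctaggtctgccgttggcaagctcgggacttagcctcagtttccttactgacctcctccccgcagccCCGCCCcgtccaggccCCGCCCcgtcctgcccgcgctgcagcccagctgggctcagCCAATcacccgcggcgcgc
The Pds5a window is 80.4% G or C and holds no CCAAT and 1 GGGCGG, the Hk2 window is 69.6% with 2 CCAAT and 3 GGGCGG, and the Cpt1a window is 59.6% with 1 CCAAT and 2 GGGCGG. Across 27025 genes with a RefSeq window, 34.5% hold CCAAT and 32.9% hold GGGCGG on either strand. These windows are not limited to the genes tested here, so their shares are not a matched background for the called genes. Of the called genes with a window, CCAAT was found in 6 of 10 positive and 8 of 13 negative genes, and GGGCGG in 9 of 10 positive and 7 of 13 negative genes. TATAAA was found in 2 of 10 and 2 of 13 (13.0% of all windows) and TGACG in 2 of 10 and 1 of 13 (17.9% of all). Each motif was searched alone on both strands, and a match describes only the letters of the window.

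Hk2 and Cpt1a act at the entry points of sugar and fat into energy metabolism. In the gene values each was called in opposite directions at the 2 ages. Hk2 encodes hexokinase 2, which phosphorylates glucose and is the isoform associated with the strong aerobic glycolysis of photoreceptors. Hk2 was at 254, 277 and 263 CPM in young wild type, against 146, 184 and 123 CPM in young knockout. Older wild type gave 242, 286 and 324 CPM and older knockout 330, 416 and 388 CPM. The P28 knockout was below and the 12-month knockout above all other libraries. Hk2 fell at P28 (-0.83 ± 0.14, adjusted p = 0.0242, limma), rose at 12 months (0.41 ± 0.14, adjusted p = 0.0371, limma) and differed between ages by 1.24 ± 0.20 (adjusted p = 0.041, limma). The transcripts divide this result. The full-length coding transcript Hk2-201 was at 50.1, 46.5 and 49.8 RPKM in 12-month wild type and at 41.5, 42.5 and 46.9 RPKM in 12-month knockout, so that the gene's higher 12-month level was not in it. The short noncoding transcript Hk2-202 was at 44.9, 64.3 and 73.9 RPKM in 12-month wild type and at 82.3, 115 and 96.3 RPKM in 12-month knockout. At P28, Hk2-202 was lower in knockout (35.2, 23.1 and 30.3 RPKM) than in wild type (53.3, 65.5 and 63.7 RPKM), and Hk2-201 was at 19.7, 49.9 and 15.9 RPKM in knockout against 46.0, 39.5 and 39.1 in wild type, with the second knockout library apart from the other 2. Summed over coding transcripts, the Hk2 difference between ages was 0.54 ± 0.44 (adjusted p = 0.44, limma) and its 12-month effect was -0.16. Weighting transcript RPKM by length gave Hk2 effects of -0.74 at P28 (adjusted p = 0.122, limma) and -0.03 at 12 months (adjusted p = 0.925, limma). The Hk2 difference was then 0.70 ± 0.37 (adjusted p = 0.211, limma). The opposite calls of Hk2 thus hold for the gene values and not for the length-weighted ones.

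Cpt1a encodes carnitine palmitoyltransferase 1A, which admits long-chain fatty acids to mitochondria for oxidation. It was at 178, 172 and 159 CPM in young wild type, against 252, 228 and 220 CPM in young knockout. Older wild type gave 255, 258 and 288 CPM and older knockout 212, 179 and 219 CPM. The P28 wild type lay below and the 12-month wild type above the other 9 libraries. Cpt1a rose at P28 (0.45 ± 0.10, adjusted p = 0.0397, limma), fell at 12 months (-0.40 ± 0.10, adjusted p = 0.00802, limma) and differed by -0.85 ± 0.14 (adjusted p = 0.041, limma). From length-weighted RPKM neither Cpt1a effect was called (0.30 and -0.23, adjusted p = 0.104 and 0.081, limma). Its main coding transcript Cpt1a-201 was also lowest in P28 wild type, at 39.6 to 40.2 RPKM in P28 wild type, 40.7 to 55.9 in P28 knockout, 55.8 to 59.0 in 12-month wild type and 46.9 to 53.0 in 12-month knockout.

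Most other genes of glycolysis had differences of the opposite sign to Hk2. Of the 24 tested genes of glycolysis and pyruvate entry, Hk2 was the one called, 21 had negative differences and the median was -0.51, beside -0.05 over all genes tested. Pfkl, a phosphofructokinase subunit, was at 46.3 to 63.0 CPM in P28 wild type, 43.0 to 70.1 in P28 knockout, 68.1 to 85.4 in 12-month wild type and 17.6 to 39.7 in 12-month knockout (difference -1.43 ± 0.35, adjusted p = 0.0679, limma). Gpi1, glucose-6-phosphate isomerase, was at 496 to 562 CPM in 12-month wild type and 151 to 289 in 12-month knockout, and its groups overlapped at P28 (difference -1.12 ± 0.30, adjusted p = 0.0767, limma). At 12 months 18 of the 24 genes fell and 2 rose, beside 23.5% and 16.1% of all genes tested. At P28 2 rose and 1 fell, beside 1% and 0.491%.

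Transcripts of the mitochondrial genome gave the most positive list median of the 34 lists. This genome encodes core subunits of the respiratory chain, and its transcripts have many near-identical copies in the nuclear genome, so their counts are uncertain where reads could be shared. All 15 tested genes had positive differences, from 0.67 to 1.81, with a median of 1.3, beside -0.05 over all genes. Their median knockout effect was -0.63 at P28 and 0.68 at 12 months. At 12 months 10 of the 15 rose, beside 16.1% of all genes tested, and at P28 none was called. The complex I subunits mt-Nd3 and mt-Nd2 were called for the difference. mt-Nd3 was at 539, 621 and 685 CPM in the P28 wild type, 323, 443 and 430 in P28 knockout, 723, 821 and 862 in 12-month wild type, and 1844, 2256 and 1388 in 12-month knockout. The P28 knockout was below and the 12-month knockout above all other libraries (difference 1.80 ± 0.24, adjusted p = 0.0244, limma). mt-Nd2 was at 5093, 4278 and 5250 CPM in the P28 wild type, 3140, 2538 and 3705 in P28 knockout, 4195, 4171 and 3641 in 12-month wild type, and 6607, 8897 and 5659 in 12-month knockout (difference 1.45 ± 0.25, adjusted p = 0.0478, limma). The second knockout library stood farthest from its wild type for mt-Nd2 at both ages. mt-Nd6, the one subunit read from the light strand, was close to the threshold (1.57 ± 0.29, adjusted p = 0.052, limma). With the trends on GC content and length removed the list median was 0.78.

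The nuclear genes of the respiratory chain had a median difference near that of all genes. Of 74 tested genes 31 had positive and 43 negative differences, beside 45.8% positive over all genes tested. None was called, and the median was -0.13. The median knockout effects were -0.36 at P28 and -0.47 at 12 months, when 42 of the 74 fell and 2 rose, beside 23.5% and 16.1% of all genes tested. Atp5d, a subunit of ATP synthase, was at 7.48 to 9.01 CPM in young wild type and 3.05 to 7.30 in P28 knockout, and at 8.12 to 11.8 CPM in 12-month wild type and 0.918 to 2.91 in 12-month knockout (difference -1.36 ± 0.40, adjusted p = 0.0847, limma). Sdha, a complex II subunit, lay on the other side, with P28 knockout below (244 to 261 CPM) and 12-month knockout above (357 to 387 CPM) all other libraries (difference 0.38 ± 0.10, adjusted p = 0.0798, limma).

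**Figure D3:**
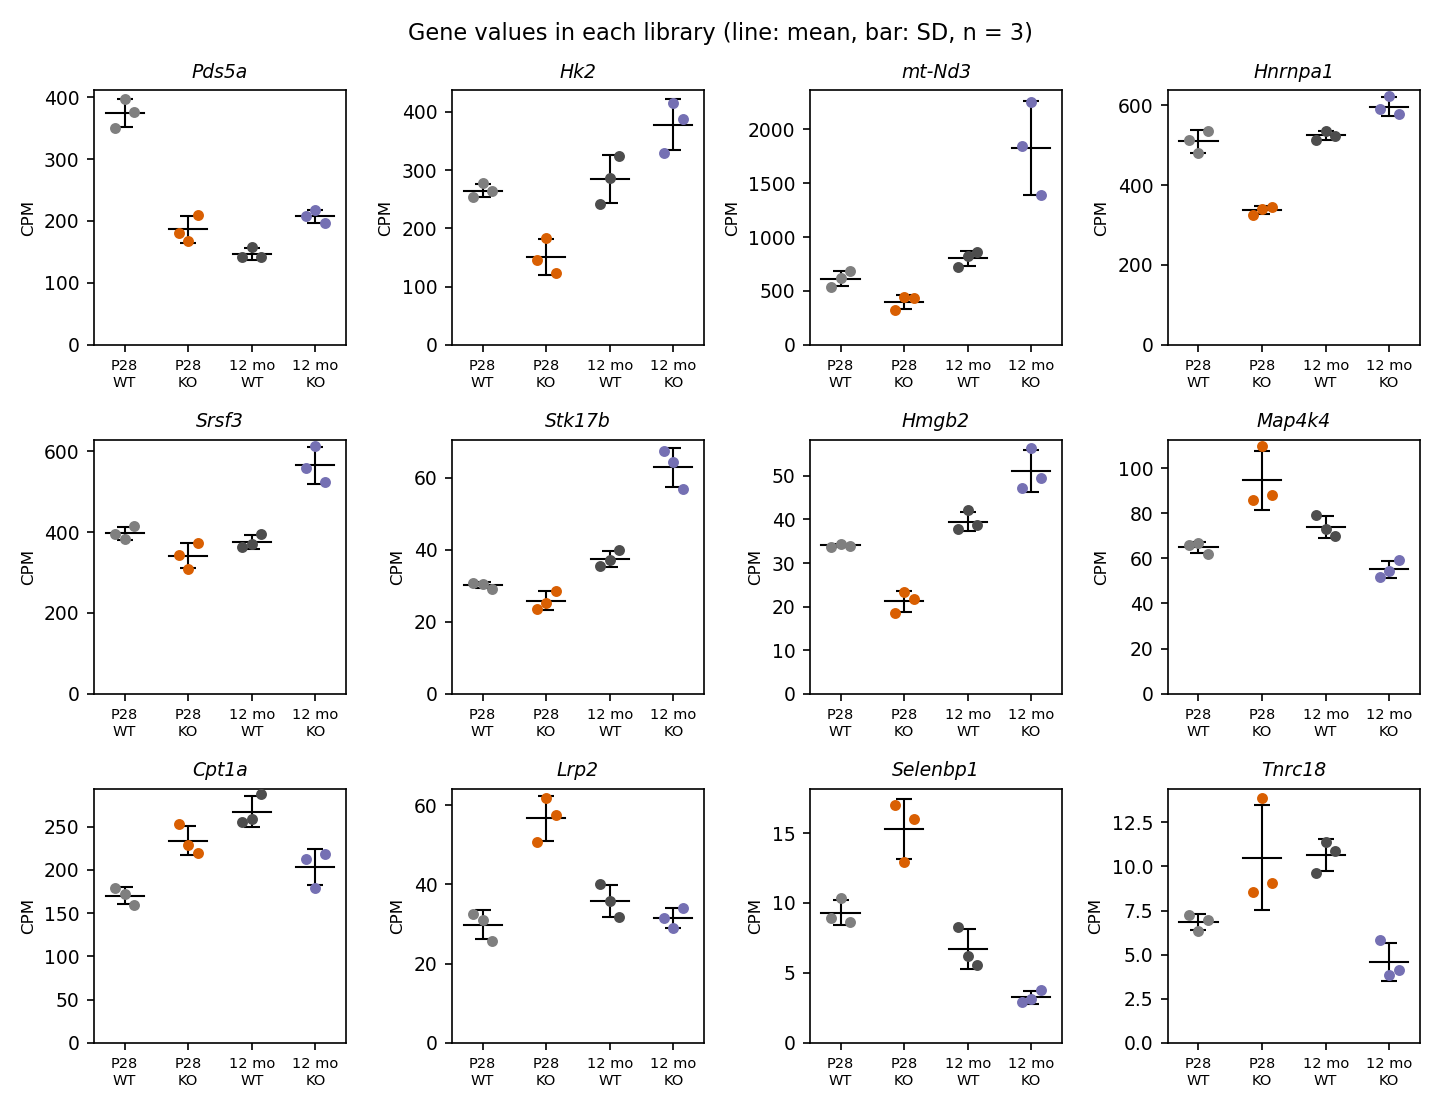
CPM of 12 called genes in every library, by group (points: libraries; line: mean; bar: SD, n = 3; each axis starts at 0). In the first 7 panels the P28 knockout mean is below and the 12-month knockout mean above its wild type, and in the last 5 the order is reversed at both ages.

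Of the 13 positive genes, 3 encode RNA-binding proteins of splicing: Hnrnpa1, Hnrnpdl and Srsf3. Hnrnpa1 encodes an hnRNP protein that binds pre-mRNA and represses splice sites, and it has many processed pseudogenes with which reads could be shared. It was at 513, 479 and 536 CPM in the P28 wild type, 325, 341 and 345 in P28 knockout, 514, 535 and 523 in 12-month wild type, and 590, 622 and 577 in 12-month knockout. The P28 knockout was below and the 12-month knockout above all other libraries. Hnrnpa1 fell at P28 (-0.59 ± 0.07, adjusted p = 0.00991, limma), its 12-month effect was 0.19 ± 0.07 (adjusted p = 0.0642, limma), and the difference was 0.78 ± 0.11 (adjusted p = 0.0244, limma). Its transcripts were not uniform. Hnrnpa1-202, the main coding form, was at 137 to 172 RPKM in P28 wild type, 74.2 to 82.4 in P28 knockout, 149 to 157 in 12-month wild type and 89.9 to 142 in 12-month knockout, so it was lower in knockout at both ages. Hnrnpa1-205, also coding, was at 64.6, 105.6 and 25.3 RPKM in the 12-month knockout and at no more than 6.04 RPKM in the other 9 libraries. Hnrnpa1-204, a form annotated for nonsense-mediated decay, was also higher in the older knockout, at 90.3 to 98.9 RPKM against 65.6 to 72.6 RPKM in wild type of that age.

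Hnrnpdl, an hnRNP related to HNRNPD, was at 339, 377 and 381 CPM in the P28 wild type, 278, 295 and 310 in P28 knockout, 362, 389 and 398 in 12-month wild type, and 545, 572 and 488 in 12-month knockout. It rose at 12 months (0.48 ± 0.09, adjusted p = 0.00316, limma), its P28 effect was -0.31 (adjusted p = 0.0829, limma), and the difference was 0.79 ± 0.12 (adjusted p = 0.041, limma). At 12 months the coding transcript Hnrnpdl-202 was lower in knockout (45.2 to 47.9 RPKM against 50.2 to 64.9). Coding Hnrnpdl-207 (97.4 to 112 against 67.3 to 73.6) and noncoding Hnrnpdl-203 (57.8 to 88.7 against 18.7 to 38.6) were higher. Summed over coding transcripts, the Hnrnpdl 12-month effect was 0.23 (adjusted p = 0.131, limma) and the difference 0.66 ± 0.16 (adjusted p = 0.0924, limma). Srsf3, a serine and arginine rich splicing factor, was at 395, 383 and 415 CPM in the P28 wild type, 344, 310 and 373 in P28 knockout, 363, 370 and 396 in 12-month wild type, and 558, 614 and 524 in 12-month knockout. For both genes the 12-month knockout stood above the other 9 libraries, which is where most of the difference lay. The Srsf3 difference was 0.80 ± 0.13 (adjusted p = 0.041, limma), with a 12-month effect of 0.58 and a P28 effect of -0.22. In its coding transcript Srsf3-202 the groups were wider apart: 52.1 to 68.6 RPKM in P28 wild type, 32.9 to 38.5 in P28 knockout, 70.8 to 81.5 in 12-month wild type and 101 to 135 in 12-month knockout.

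Over the 28 tested splicing factors, 24 differences were positive and 3 were called (Hnrnpa1, Hnrnpdl and Srsf3), with a median of 0.27. The median knockout effect was 0.04 at P28 and 0.41 at 12 months. At 12 months 19 of the 28 rose and 2 fell, beside 16.1% and 23.5% of all genes tested, and at P28 1 fell, beside 0.491%. Srsf7 was at 201 to 227 CPM in P28 knockout and 295 to 347 in 12-month knockout, below and above all other libraries (difference 0.57 ± 0.11, adjusted p = 0.0624, limma). With GC and length trends removed the median of the 28 was 0.04.

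Hmgb2, a chromatin protein that bends DNA, was at 33.8, 34.4 and 33.9 CPM in the P28 wild type, 18.6, 23.4 and 21.7 in P28 knockout, 37.8, 42.1 and 38.6 in 12-month wild type, and 47.2, 56.5 and 49.5 in 12-month knockout. It fell at P28 (-0.66 ± 0.10, adjusted p = 0.0167, limma) and rose at 12 months (0.36 ± 0.10, adjusted p = 0.0168, limma), with a difference of 1.02 ± 0.15 (adjusted p = 0.0329, limma). The P28 knockout was the lowest and the 12-month knockout the highest of the 4 groups, without overlap. Stk17b, a serine/threonine kinase of the death-associated protein kinase family, was at 30.9, 30.5 and 29.1 CPM in the P28 wild type, 23.5, 25.3 and 28.7 in P28 knockout, 35.4, 37.1 and 39.8 in 12-month wild type, and 67.4, 64.5 and 56.9 in 12-month knockout. Its difference of 0.96 ± 0.14 (adjusted p = 0.0344, limma) came mainly from 12 months, where the ratio of mean CPM was 1.68.

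Nol11, a component of the complex that processes ribosomal RNA, was at 78.0, 79.3 and 84.2 CPM in young wild type and 61.0, 56.7 and 58.5 in P28 knockout, and at 72.3, 72.8 and 65.0 CPM in 12-month wild type and 82.4, 80.1 and 81.6 in 12-month knockout. It fell at P28 and rose at 12 months, with effects of -0.45 (adjusted p = 0.0228, limma) and 0.22 (adjusted p = 0.0413, limma). From length-weighted RPKM neither Nol11 effect was called (-0.37 and 0.19, adjusted p = 0.0538 and 0.0929, limma). Mfap1b, a copy of the spliceosome-associated gene Mfap1a with which it can share reads, was at 114, 108 and 113 CPM in the P28 wild type, 85.3, 84.9 and 84.5 in P28 knockout, 106, 109 and 97.0 in 12-month wild type, and 119, 125 and 115 in 12-month knockout. Its effects were -0.39 and 0.20, both called (adjusted p = 0.0306 and 0.0432, limma). The noncoding A930006I01Rik fell from 87.3 to 93.6 CPM in wild type to 62.8 to 71.0 CPM in knockout at P28 and rose from 91.3 to 96.7 to 105 to 123 CPM at 12 months. D16Ertd472e was at 165 to 177 and 132 to 154 CPM at P28, and at 179 to 184 and 230 to 269 CPM at 12 months, where it rose. Differences for these 4 genes were 0.66 (adjusted p = 0.041), 0.59 (0.0478), 0.72 (0.041) and 0.71 (0.0478) in that order (limma).

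Among the 16 negative genes, 4 rose at P28 and fell at 12 months in the gene values: Cpt1a, described above, Map4k4, Etv5 and AC149090.1. From length-weighted RPKM the P28 and 12-month effects were 0.20 and -0.22 for Map4k4 and 0.15 and -0.21 for Etv5. None of these was called (adjusted p = 0.0664 or more, limma), as for Cpt1a, whereas AC149090.1 was called at both ages (adjusted p = 0.0495 and 0.00223, limma). Map4k4, a kinase upstream of JNK signalling, was at 65.8, 66.7 and 62.0 CPM in the P28 wild type, 86.0, 110 and 88.0 in P28 knockout, 79.2, 72.9 and 69.8 in 12-month wild type, and 51.5, 54.4 and 59.2 in 12-month knockout. The P28 knockout lay above and the 12-month knockout below all other libraries (effects 0.53 and -0.42, difference -0.95 ± 0.14, adjusted p = 0.0372, limma). Etv5, an ETS transcription factor downstream of FGF signalling, was at 24.0, 25.5 and 25.9 CPM in the P28 wild type, 35.1, 34.0 and 43.4 in P28 knockout, 29.8, 28.7 and 29.2 in 12-month wild type, and 24.2, 24.8 and 22 in 12-month knockout (difference -0.85 ± 0.15, adjusted p = 0.0478, limma). AC149090.1, a coding model on the unplaced scaffold JH584304.1 (52190-59690, GRCm38), was at 60.6, 76.2 and 61.0 CPM in the P28 wild type, 137, 86.6 and 113 in P28 knockout, 181, 151 and 166 in 12-month wild type, and 88.4, 63.0 and 85.7 in 12-month knockout. Its difference, -1.81 ± 0.24 (adjusted p = 0.0244, limma), was the most negative of the 29, and reads from such scaffold models can be shared with copies elsewhere in the genome.

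In the gene values Lrp2 and Dgkd rose at P28 and were not called at 12 months. From length-weighted RPKM both were called lower at 12 months (-0.37 and -0.50, adjusted p = 0.0112 and 0.00568, limma). Lrp2 encodes megalin, a large endocytic receptor. It was at 32.6, 31.1 and 25.6 CPM in the P28 wild type, 50.6, 61.9 and 57.6 in P28 knockout, 40.0, 35.9 and 31.8 in 12-month wild type, and 31.5, 28.9 and 34.1 in 12-month knockout. Only the P28 knockout stood apart, above the other 9 libraries (P28 effect 0.91 ± 0.12, adjusted p = 0.0128; 12-month effect -0.18 ± 0.12, adjusted p = 0.253; difference -1.09 ± 0.17, adjusted p = 0.041, limma). Dgkd, a diacylglycerol kinase, was at 128, 142 and 125 CPM in the P28 wild type, 184, 196 and 182 in P28 knockout, 146, 139 and 158 in 12-month wild type, and 138, 116 and 126 in 12-month knockout (difference -0.73 ± 0.12, adjusted p = 0.0478, limma). The P28 rise of the Dgkd gene value was not in its coding transcripts, whose summed P28 effect was 0.01. It was also not seen in the length-weighted RPKM of all its transcripts (P28 effect 0.08, adjusted p = 0.721, limma). The retained-intron form Dgkd-206 was at 3.64 to 5.24 RPKM in P28 wild type and 9.36 to 14.6 RPKM in P28 knockout.

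Another 10 negative genes were called at 12 months and not at P28, and all of them were lower in the 12-month knockout. Selenbp1, which encodes a selenium-binding methanethiol oxidase, was at 8.95, 10.3 and 8.62 CPM in the P28 wild type, 17.0, 12.9 and 16.0 in P28 knockout, 8.27, 6.23 and 5.54 in 12-month wild type, and 2.88, 3.12 and 3.77 in 12-month knockout. The P28 knockout was above and the 12-month knockout below all other libraries (difference -1.50 ± 0.23, adjusted p = 0.0372, limma). Tnrc18, a large nuclear protein, was at 7.25, 6.36 and 6.98 CPM in the P28 wild type, 8.54, 13.9 and 9.05 in P28 knockout, 9.63, 11.4 and 10.8 in 12-month wild type, and 5.82, 3.82 and 4.13 in 12-month knockout (difference -1.59 ± 0.26, adjusted p = 0.041, limma). The second P28 knockout library was the highest for Tnrc18, and it was also the shallowest library and the one with most lens signal. In the fit without that library Tnrc18 was still called in the same direction, and the part of the library's depth and lens signal was not otherwise tested. The 12-month fall of Tnrc18, by 1.07, was without overlap. The Tnrc18 difference was -0.76 from summed transcript RPKM, -0.66 from length-weighted RPKM and -0.30 from coding transcripts (adjusted p = 0.0646, 0.0724 and 0.126, limma).

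Hap1, a huntingtin-associated trafficking protein, was at 27.0, 36.3 and 27.9 CPM in the P28 wild type, 40.6, 45.6 and 32.6 in P28 knockout, 39.8, 34.8 and 44.4 in 12-month wild type, and 22, 17.3 and 23.3 in 12-month knockout. Zc3h3, a zinc finger protein of mRNA processing, was at 9.05, 11.1 and 8.32 CPM and at 15.4, 10.6 and 13.1 CPM in wild type and knockout at P28, and at 7.18, 7.32 and 9.01 CPM and at 2.83, 3.53 and 4.28 CPM at 12 months. Both overlapped between genotypes at P28 and separated at 12 months, with differences of -1.27 ± 0.22 and -1.38 ± 0.24 (adjusted p = 0.0478 for both, limma). Mtus2, a microtubule-associated protein, was at 53.5 to 54.2 and 57.9 to 64.6 CPM at P28, and at 55.8 to 65.6 and 36.3 to 44.4 CPM at 12 months. Col23a1, a transmembrane collagen, was at 57.8 to 68.3 and 69.3 to 88.9 CPM at P28, and at 56.1 to 60.7 and 34.8 to 42.1 CPM at 12 months. Their differences were -0.79 ± 0.14 and -0.89 ± 0.16 (adjusted p = 0.0478 for both, limma), carried mostly by 12-month effects of -0.63 and -0.64.

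Haghl, a relative of the glyoxalase gene Hagh, was at 6.42 to 7.35 and 4.67 to 5.61 CPM at P28, and at 6.42 to 9.21 and 2.00 to 2.12 CPM at 12 months. It was the one called gene with estimates below 0 at both ages (-0.36, adjusted p = 0.172, and -1.50, adjusted p = 0.00173, limma). The noncoding Gm20742 was at 0.408 to 1.43 and 2.31 to 2.71 CPM at P28, and at 1.14 to 1.52 and 0.319 to 0.405 CPM at 12 months (difference -1.60 ± 0.27, adjusted p = 0.0414, limma). Acte1, an actin-like gene, was at 1.04, 1.77 and 1.74 CPM in 12-month wild type and was listed at 0 in the other 9 libraries, so no fold is given. It passed the filter on low values only through that group, so its call is a consequence of the filter and supports nothing. With the filter at 6 libraries Acte1 was not tested, and the other 28 genes were called.

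Gene-level values from which noncoding transcripts were left out gave a shorter list. Of 27 called genes with coding transcripts measured, 7 were called from those transcripts alone: Pds5a, Hnrnpa1, Srsf3, Hmgb2, Stk17b, D16Ertd472e and AC149090.1. The Pds5a difference was then 1.95 ± 0.18 (adjusted p = 0.00752, limma). Coding transcripts alone gave larger differences for Hnrnpa1 (1.19) and Srsf3 (1.33), and smaller ones, none called, for Tnrc18 (-0.30, adjusted p = 0.126), Map4k4 (-0.44, 0.0973), Cpt1a (-0.50, 0.0982), Haghl (-0.61, 0.145), Cx3cr1 (-0.69, 0.0757) and Zc3h3 (-0.86, 0.0924; limma). The P28 effect in coding transcripts was -0.05 for Tnrc18 and -0.18 for Zc3h3, on the other side of 0 from their gene-level values. With transcript RPKM weighted by length the Etv5 difference was -0.36 (adjusted p = 0.303, limma), and summed RPKM gave -0.73 for Gm20742 (adjusted p = 0.0519, limma). With the length-weighted values 18 of the 29 were called, and all 29 kept their direction. Both sums were chosen after the data were seen.

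Cx3cr1, the fractalkine receptor that marks microglia in the retina, was the one gene of the microglial list to be called. It was at 4.23, 4.83 and 4.96 CPM in the P28 wild type, 7.87, 6.6 and 7.50 in P28 knockout, 6.44, 6.71 and 5.57 in 12-month wild type, and 4.00, 4.33 and 4.03 in 12-month knockout. The knockout lay above wild type at P28 (0.55 ± 0.13, adjusted p = 0.0523, limma) and fell at 12 months (-0.50 ± 0.13, adjusted p = 0.01, limma), with a difference of -1.05 ± 0.18 (adjusted p = 0.0478, limma). In bulk retina fewer microglia and less of this RNA per microglial cell cannot be told apart. Of 15 tested microglial genes 13 had negative differences, with a median of -0.59 (median effects 0.09 at P28 and -0.22 at 12 months), 7 fell at 12 months (23.5% of all genes tested did) and 1 rose at P28 (1% did). C1qb, a subunit of the complement initiator C1q, was at 0.855 to 1.63 CPM in P28 wild type, 0.981 to 1.63 in P28 knockout, 2.83 to 3.45 in 12-month wild type and 0.473 to 1.17 in 12-month knockout (difference -1.20 ± 0.27, adjusted p = 0.0628, limma). Tyrobp, which encodes DAP12, was at 0.474 to 1.13 CPM in P28 wild type, 0.371 to 1.15 in P28 knockout, 1.17 to 2.03 in 12-month wild type and 0.383 to 0.597 in 12-month knockout. Summed over the list, the microglial genes were at 73.4 to 86.6 CPM in P28 wild type, 86.6 to 101 in P28 knockout, 98.1 to 121 in 12-month wild type and 89.5 to 112 in 12-month knockout, so that the sum overlapped between genotypes at 12 months.

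Genes of reactive gliosis had the most negative list median. In retinal stress Müller glia raise intermediate filaments and acute-phase proteins, and such genes are used as markers of that state. Of 15 tested genes 14 had negative differences, the median was -0.72, and none was called for the difference at adjusted p under 0.05 (limma), while 9 had an unadjusted p under 0.05, beside 26.7% of all genes tested. The median effect was 0.33 at P28 and -0.33 at 12 months. Nes, the intermediate filament nestin, was at 4.05, 4.29 and 5.66 CPM in the P28 wild type, 8.97, 7.08 and 9.71 in P28 knockout, 4.19, 3.85 and 3.30 in 12-month wild type, and 2.91, 3.04 and 3.18 in 12-month knockout. Nes rose at P28 (0.76 ± 0.15, adjusted p = 0.0377, limma) and the difference was -0.997 ± 0.218 (adjusted p = 0.0628, limma). C4b, complement component 4, was at 2.21 to 4.35 CPM in P28 wild type, 2.12 to 8.74 in P28 knockout, 22.3 to 30.2 in 12-month wild type and 6.47 to 10.7 in 12-month knockout. The older wild type was the group apart for C4b (difference -1.97 ± 0.49, adjusted p = 0.0695, limma). Lcn2, lipocalin 2, was at 1.22 to 1.87 CPM in P28 wild type, 2.44 to 10.4 in P28 knockout, 2.65 to 3.63 in 12-month wild type and 1.84 to 2.85 in 12-month knockout (difference -1.64 ± 0.45, adjusted p = 0.0793, limma). The list median was -0.60 with GC and length trends removed and -0.65 with a term for sex.

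Several other lists shifted in the same direction by less. The calcium channels, pumps and sensors of the retina had negative differences in 24 of 25 tested genes (median -0.34), beside 45.8% positive over all genes tested. This calcium list had median effects of 0.27 at P28 and -0.22 at 12 months, and none of its genes was called. Among them Cacna1a, a presynaptic calcium channel, was highest in P28 knockout (21.8 to 29.7 CPM) and lowest in 12-month knockout (11.5 to 13.8 CPM). Genes of the unfolded protein response, which acts when misfolded protein builds up in the endoplasmic reticulum, had negative differences in 17 of 20 tested (median -0.27). Xbp1, a transcription factor of that response, rose at P28, from 67.4 to 73.4 CPM in wild type to 94.8 to 116 CPM in knockout (0.60 ± 0.10, adjusted p = 0.0242, limma), and was at 71.4 to 79.5 and 61.6 to 78.7 CPM at 12 months. Endothelial and pericyte markers had negative differences in 14 of 15 tested (median -0.39).

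Rod genes had a median difference near 0 and cone genes a negative one, a contrast that moved with the scaling. After quantile normalization the medians were -0.28 for rod and -0.29 for cone genes, and with a sex term -0.13 and -0.26. They were 0.01 and -0.23 with GC and length trends removed, and 0.04 and -0.19 from summed transcript RPKM. The 22 rod genes had a median difference of -0.03, with 11 positive and 11 negative, and median effects of -0.28 at P28 and -0.43 at 12 months. Of these, 13 fell and 1 rose at 12 months, beside 23.5% and 16.1% of all genes tested, and 1 fell at P28, beside 0.491%. Cone genes had a median difference of -0.28, and 11 of the 15 tested were negative (45.8% of all genes tested were positive). Gnb3, the cone transducin beta subunit, was at 85.5 to 112 CPM in P28 wild type, 61.9 to 98.9 in P28 knockout, 135 to 159 in 12-month wild type and 38.6 to 70.8 in 12-month knockout (difference -1.21 ± 0.30, adjusted p = 0.0671, limma). Pde6c, the cone phosphodiesterase, was at 122 to 146 and 154 to 161 CPM at P28 and at 135 to 158 and 114 to 125 CPM at 12 months, with the knockout above wild type at P28 and below it at 12 months (difference -0.56 ± 0.13, adjusted p = 0.0647, limma).

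Msmo1 and Fos, from the sterol synthesis and immediate early lists, fell at P28 and were not called at 12 months. Msmo1, a methylsterol oxidase, fell at P28, from at least 84.7 CPM in wild type to 59.6 to 61.5 CPM in knockout, and was at 82.2 to 89.6 and 85.0 to 92.6 CPM at 12 months (difference 0.66 ± 0.12, adjusted p = 0.0519, limma). Over 24 sterol genes the median difference was 0.08. Fos, an immediate early transcription factor that neuronal activity induces, was at 23.4 to 27.6 CPM in young wild type and at 10.6 to 17.1 CPM in the other 9 libraries (difference 0.98 ± 0.18, adjusted p = 0.052, limma). Its position matched that of Pds5a, in that the P28 wild type stood above the other 9, which held for 1.42% of all genes tested. Over 19 immediate early genes the median difference was -0.01, and it was 0.33 with GC and length trends removed and 0.23 from summed transcript RPKM. Of the 19, 3 fell at P28 (Fos, Dusp1 and Egr1), beside 0.491% of all genes tested. At 12 months 3 fell and 1 rose. The differences of Dusp1 and Egr1 were 0.64 and 1.09 (adjusted p = 0.0819 and 0.0899, limma).

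Lens, pigment epithelium and acute-phase lists depended on single libraries or on sex. The 20 lens genes had a median difference of 0.84 and all were positive, none was called (0 at an unadjusted p under 0.05), and the median was -0.11 without the third P28 knockout library, -0.07 without the third P28 wild type and 2.14 without the second P28 knockout. Pigment epithelium genes had a median of -0.43, which was -1.04 without the first and 0.07 without the second P28 wild-type library and 0.01 with a term for sex. Acute-phase and protease-inhibitor genes had a median of 0.83, which was 0.08 with a term for sex. The known partners of the PILR receptors and their signalling adaptors had negative differences in 7 of 9 tested genes (45.8% of all genes tested had positive ones), a median of -0.27, and none called.

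**Figure D4:**
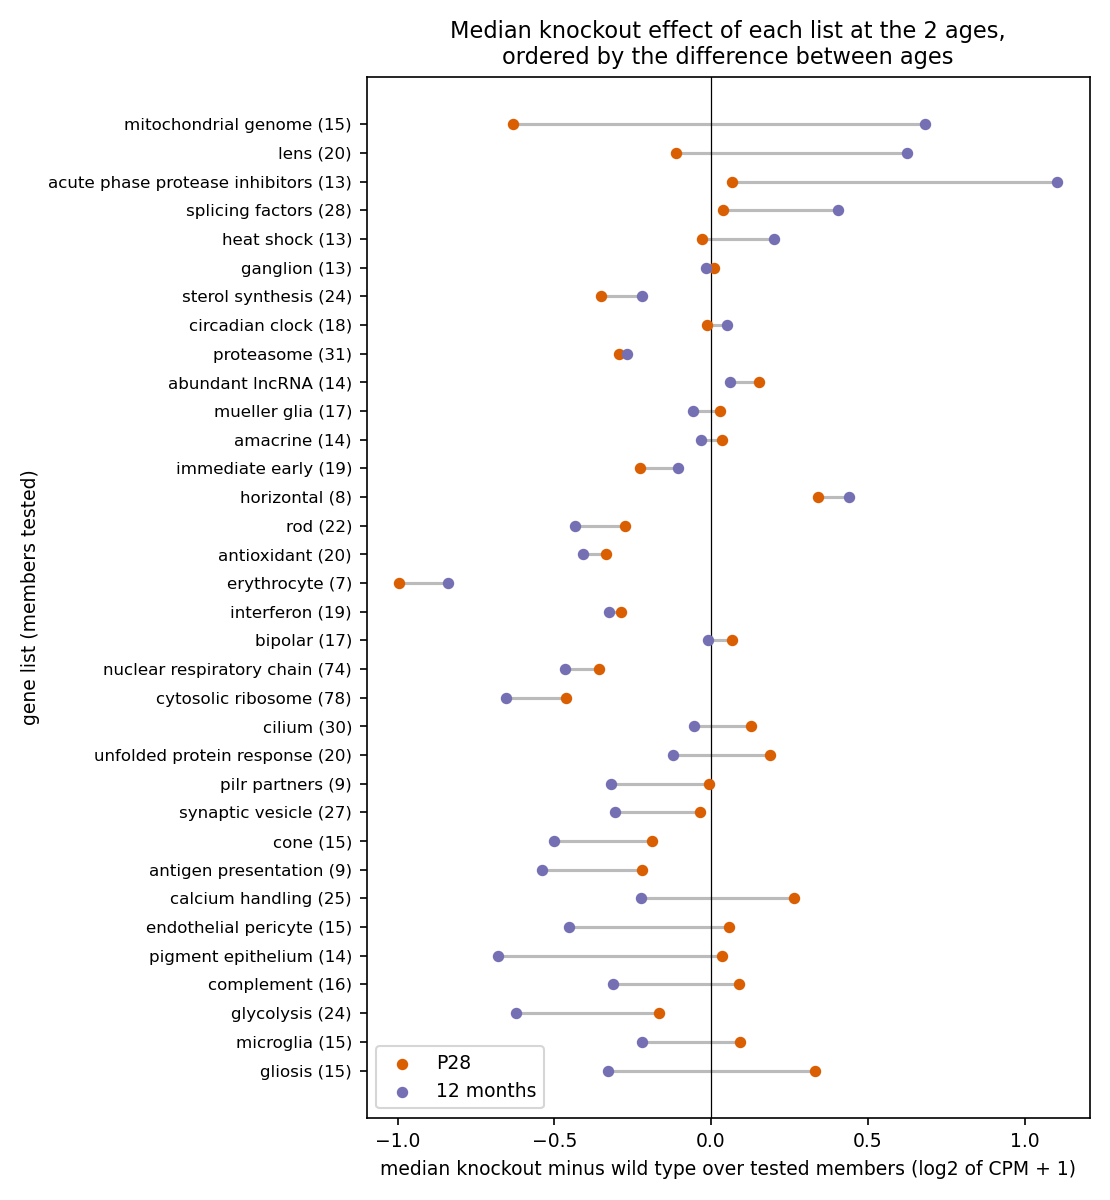
Median knockout minus wild type over the tested members of each list, in log2(CPM + 1), at P28 (orange) and at 12 months (purple), ordered by the median difference between ages. The mitochondrial genome list, at the top, runs from -0.63 to 0.68 and the gliosis list, at the bottom, from 0.33 to -0.33.

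The sign of the difference followed the base composition of the transcripts. The GC content of the 13 positive genes was 33.0 to 47.6% (median 41.1%), and that of the 15 negative genes with a value was 48.6 to 60.2% (median 51.6%), beside a median of 48.6% over all genes tested. All 13 positive genes lay below that median and all 15 negative genes above it. Over 16274 genes the Spearman correlation of the difference with GC content was -0.648, and with transcript length it was 0.0119. These are correlations across genes, which share the same 12 libraries and are not independent replicates. The median difference fell from 0.34 in the 10% of genes with least GC (median 39.3%) to -0.57 in the 10% with most (58.1%). The knockout effect at 12 months had a correlation of -0.794 with GC content, and that at P28 of -0.352.

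With a smooth trend on GC content and length removed from each library, 1 gene was called, Pds5a, with a difference of 1.12 ± 0.09 (adjusted p = 0.000364, limma). The 28 called genes with a GC value all kept their direction. At an unadjusted p under 0.05 there were then 2688 genes.

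**Figure D5:**
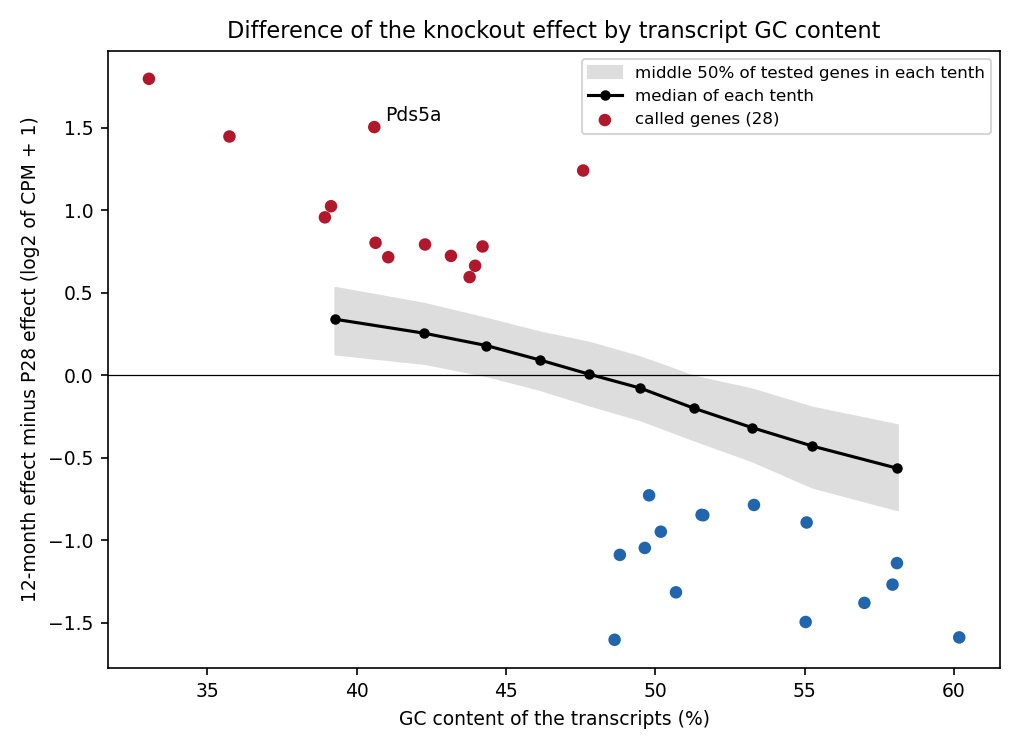
Difference of the knockout effect, 12 months minus P28, in log2(CPM + 1), against transcript GC content; the line and band give the median and middle 50% of genes in each of 10 equal bins of GC content. The 13 positive called genes (red) lie at or below 47.6% GC and the 15 negative ones with a value (blue) at or above 48.6%.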

How the data were processed

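Stranded poly(A) RNA-seq of 12 mouse retina libraries was analysed. Per the submitters' processing notes the tools were kallisto 0.45.0, tximport 1.30.0 and edgeR 4.0.3. The notes name a human reference with Ensembl release 102, whereas the identifiers are of mouse. The authors deposited gene values as CPM per effective library, treated here as a normalized signal because the columns sum to 0.930 to 1.10 of the nominal total, and transcript values as RPKM. Only 9.85 to 17.0% of values lay within 0.02 reads of a whole read, so reads were not recovered, depths are approximate and no count test was run. For Hk2 the gene-level effects lay near those from summed transcript RPKM, in which short and long transcripts count alike. A change in a gene value can therefore differ from a change in reads.

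Genes with CPM of at least 1 in 3 or more libraries were fitted on log2(CPM + 1) with limma 3.58.1 (R 4.3.3), 1 mean per group, 8 residual degrees of freedom, a mean-variance trend and Benjamini-Hochberg adjustment at 0.05. Fold changes on this scale understate low genes. The fit was tried on simulated data with independent noise. That simulation held no effect shared by genes within a library, of sex or of GC content, so it does not show how the fit behaves under those. The genes named were Pilra, Pilrb1 and Pilrb2, the 12 most positive and the 12 most negative called differences, up to 6 genes per direction with opposite effects at the 2 ages (clone and predicted symbols left out of both), and up to 5 members of each list by smallest p. The rest of the 29 called genes, clone symbols included, were added so that all are described. The members and the 34 lists were chosen with earlier results of these data known. GC content, length and coordinates came from GENCODE (GRCm38.p6), and promoters from RefSeq. Alternatives varied the pseudocount, filter, scaling, variance model, sex term, GC and length trends and libraries left out. The length-weighted and coding-only transcript sums were added after seeing the data.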

Additional observations from a re-analysis of the deposited data

Results flagged for a closer look

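For the 29 genes below the test of the difference between ages itself passed the threshold (adjusted p under 0.05, limma) in the fit without a sex term. Sex ran with this contrast, as P28 wild type and 12-month knockout were all male, so passing it does not set an effect of the knockout apart from sex. The log2 differences that were positive were 1.80 for mt-Nd3, 1.50 for Pds5a, 1.45 for mt-Nd2, 1.24 for Hk2, 1.02 for Hmgb2, 0.96 for Stk17b, 0.80 for Srsf3, 0.79 for Hnrnpdl, 0.78 for Hnrnpa1, 0.72 for A930006I01Rik, 0.71 for D16Ertd472e, 0.66 for Nol11 and 0.59 for Mfap1b. The negative differences were -1.81 for AC149090.1, -1.60 for Gm20742, -1.59 for Tnrc18, -1.50 for Selenbp1, -1.38 for Zc3h3, -1.32 for Acte1, -1.27 for Hap1, -1.14 for Haghl, -1.09 for Lrp2, -1.05 for Cx3cr1, -0.95 for Map4k4, -0.89 for Col23a1, -0.85 for Cpt1a, -0.85 for Etv5, -0.79 for Mtus2 and -0.73 for Dgkd. For Hk2 the short noncoding transcript and the coding transcript differed in direction at 12 months. None of the 29 was called when a sex term was the only change to the model, and Pds5a was called when GC and length trends were removed as well. Acte1 passed the filter on low values only through the 1 group in which it was above 0.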

How the results depend on the processing

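The 29 calls kept their direction under every alternative in which they were measured, but their number did not hold. It was 5 with no filter on low values, 45 with CPM of at least 1 in 6 libraries, 14 from summed transcript RPKM, 65 from length-weighted transcripts, 12 from coding transcripts, 0 with a sex term, 3 in male libraries, 1 with GC and length trends removed, 1 with trends and a sex term, 13 without the variance trend, 5234 with array weights and 1656 at an adjusted p of 0.10. Leaving out 1 library gave 1 to 2501. The 10 genes with opposite called effects became 4 with no filter, 1 with a sex term, 2 in male libraries, 1 with trends removed, 0 with trends and a sex term, 250 with array weights, 2 without the variance trend, 50 at an adjusted p of 0.10, 16 from length-weighted and 6 from coding transcripts, and 1 to 56 when 1 library was left out. The Pilra difference ranged from -0.828 to -0.47 when 1 library was left out. Pds5a was called in each of these fits except that in which a sex term was the only change. The cause of these changes was not tested.

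With the replicate number as a block 1221 genes were called (425 positive, 796 negative), the 29 among them. In their deviations from the group means, same-numbered libraries correlated at 0.0879, -0.107 and 0.0476 at P28 and at 0.0989, 0.308 and 0.156 at 12 months. Differently numbered libraries correlated at -0.136 to 0.106 at P28 and at -0.308 to 0.131 at 12 months. Whether the numbers pair the samples was not settled by these values, so the block fit is given only as an alternative.

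Depth is approximate, 3 libraries per group limit every test, and sex runs with the contrast.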
